A study of Homo sapiens with 6 samples.

Results

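The genes described here are the FOXO transcription factors FOXO1, FOXO3 and FOXO4, the FOXO target BCL6, and 5 genes that carry the insulin signal to these factors: the insulin receptor INSR, the receptor substrates IRS1 and IRS2, and the kinases PIK3CA and AKT1. They were followed in the human line TFK-1, which was established from a cancer of the extrahepatic bile duct. A probe was taken for a gene where the platform's annotation gave that gene as its single symbol. By this rule 8 of the 9 genes were measured, with 12 probes, out of 18336 genes on an array of 31741 probes. Both FOXO3 probes also carry the symbol of FOXO3B, so no value is given for FOXO3.

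All samples were TFK-1 cells transduced with lentivirus and then kept under puromycin to give stable lines. One group of 3 samples overexpressed HOXA5, a homeobox transcription factor, and the other 3 samples were the normal control. Total RNA of each sample was read in Cy5 on its own 1-colour array, so n = 3 per group throughout. The lines are stable transductants of a single tumour cell line, and whether the samples within a group were grown as separate cultures is not stated in the labels. The p-values therefore reflect only sample-to-sample spread, part or all of which may be technical. RNA of the whole culture was measured, in which fewer cells of a kind and less RNA per cell cannot be told apart.

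In the insulin pathway, the bound receptor phosphorylates its substrates, which recruit the lipid kinase PI3-kinase and thereby activate AKT. AKT phosphorylates FOXO factors, which leave the nucleus, so insulin shuts down FOXO targets. When the signal is low, nuclear FOXO factors turn on genes of cell cycle arrest, cell death, stress resistance and autophagy, and in several cell types also the genes of the insulin receptor and of IRS2, which makes the pathway a feedback loop. Most of this control lies in phosphorylation and location of proteins, which an expression array does not measure.

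The promoters were searched for forkhead motifs, the DNA letters that FOXO factors bind, to show what sequence lies at the start of the genes whose levels follow. All 9 genes matched the RefSeq promoter table (GRCh38.p14), with 14 windows of 300 bases that run from 250 bases before to 50 after an annotated start. The full forkhead motif TGTTTAC, searched on both strands, was present in 2 of the 14 windows, against 3.42% of all 35116 windows. The shorter form TGTTTNC, which covers the full one, was present in 3 of 14, against 18% of all. The letters TTGTTTTG, the core of the insulin response element, were added to the search after the windows had been read and were present in 1 of 14 windows, that of IRS2, against 1.68% of all. Stretches of 120 bases around the full motif in PIK3CA and FOXO4 and around the insulin response element core in IRS2 are shown, 5′ to 3′ on the strand of the gene, with the motif in capitals.
PIK3CA, chr3:179148151-179148270, plus strand: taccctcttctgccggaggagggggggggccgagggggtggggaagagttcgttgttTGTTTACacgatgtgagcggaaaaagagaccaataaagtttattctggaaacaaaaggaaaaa
FOXO4, chrX:71095781-71095900, plus strand: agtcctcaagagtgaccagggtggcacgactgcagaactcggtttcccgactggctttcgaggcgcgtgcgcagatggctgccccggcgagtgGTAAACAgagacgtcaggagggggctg
IRS2, chr13:109786561-109786680, minus strand: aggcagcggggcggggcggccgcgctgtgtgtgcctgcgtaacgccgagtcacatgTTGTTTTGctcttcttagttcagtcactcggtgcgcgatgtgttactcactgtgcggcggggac
The motif lay 149 bases before a start of PIK3CA, 41 bases before the start of IRS2 and 23 bases after the start of FOXO4, where the strand of the gene reads GTAAACA and the opposite strand reads TGTTTAC. That PIK3CA start, at 179148357, lies inside the gene interval given below for PIK3CA, and so does the motif. The match is a description of letters and says nothing about binding in these cells.

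As a check of the labels, the brighter HOXA5 probe (PH_hs_0035417) rose by 1.94 ± 0.12 (log2 fold change ± SE; limma, adjusted p = 0.000766). This probe was dim on control array 3, at a raw intensity of 49. Its rise passed under each of the 18 alternatives, but its size ran from 0.80 to 2.50. The other HOXA5 probe (PH_hs_0002929) fell by 0.34 ± 0.07 (limma, adjusted p = 0.0253), a call lost under 10 of 17 alternatives, among them those without control array 1, 2 or 3 (adjusted p = 0.0734, 0.0898 and 0.0765) and HOXA5 array 1 (adjusted p = 0.0703). Which part of the HOXA5 transcript either probe reads is not given in the sources used here. HOXA5 replicate 3 was the dimmest array, with 17150 probes not marked as dim, against up to 21154 on control replicate 1, and median raw intensity ran from 95 to 180 over the arrays. Of 8 measured biliary epithelial markers, 7 were above the dim limit on all 6 arrays, 5 rose and 0 fell, against 13.1% and 11% of all genes. Of 9 measured markers of hepatocytes, blood, endothelium and fibroblasts, 5 were dim on all arrays (ALB, PTPRC, CD3E, COL3A1 and DCN). Another 3, APOA1, VWF and COL1A1, were above the dim limit on all arrays, and PECAM1 was above it on some. Of the 9, 1 rose, APOA1, by 0.89 ± 0.19 (limma, adjusted p = 0.0279), and 0 fell. The part of these markers in the changes below was not tested.

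With HOXA5 overexpression, the FOXO factors FOXO1 and FOXO4, their target BCL6 and the insulin receptor rose. No fall passed the test among the brightest probes of the 8 genes. The rises were 4.23-fold for BCL6, 2.49-fold for INSR, 1.90-fold for FOXO4 and 1.83-fold for FOXO1. IRS1, IRS2, PIK3CA and AKT1 did not pass at their brightest probe, although a second, dimmer AKT1 probe fell. Each gene is given by its brightest probe on average over the arrays, and a gene is said to have risen or fallen at a Benjamini-Hochberg adjusted p under 0.05 over all probes (limma). Thus 4 of 8 genes rose, against 13.1% of all genes, and 0 of 8 fell, against 11% of all genes. Of the 8 genes 0 were dim on all arrays, against 4122 of all 18336 genes, so the shares come from sets of unlike brightness. A rise of at least 2-fold was seen in 2 of 8 genes, against 3.83% of all, and a fall of that size in 0 of 8, against 2.39% of all. The groups did not overlap for 5 of the 8 genes (4 higher and 1 lower with HOXA5), against 41.4% of all genes. The median log2 fold change of the 8 genes was 0.90, and that of all genes was -0.01. The genes were chosen with results of these data known, and BCL6, INSR and AKT1 also belong to the genes that the study itself placed in FOXO signalling from these samples, so their changes are not independent evidence for that pathway.

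**Figure D1:**
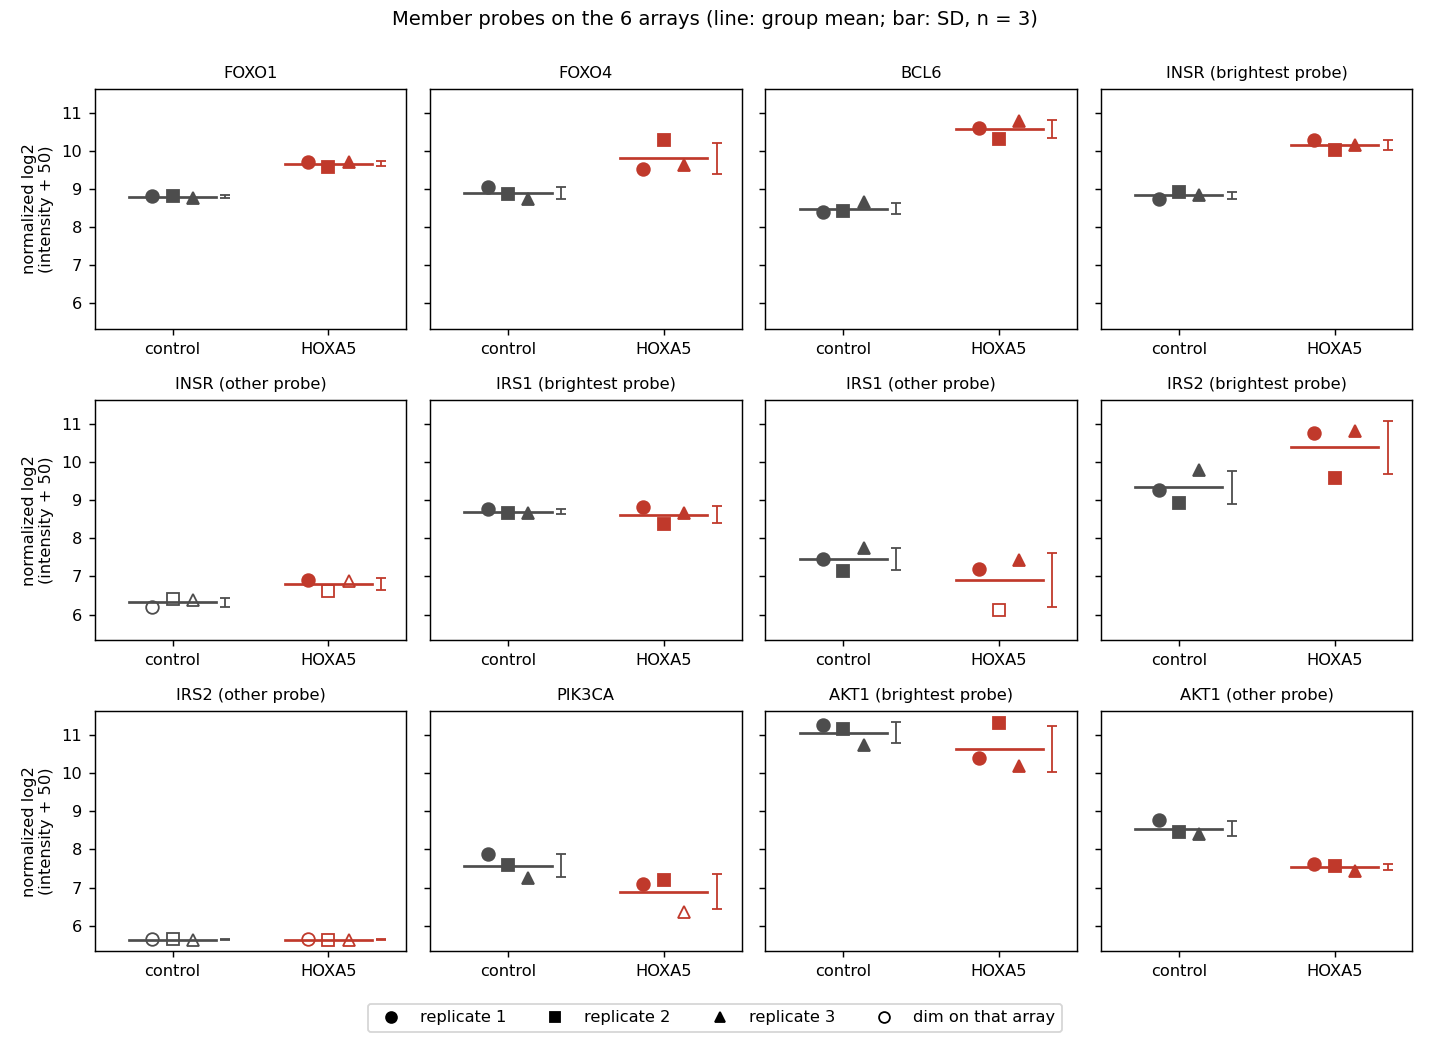
Normalized log2 intensity (y axis) of each member probe on the 3 control and 3 HOXA5 arrays, with 1 panel per probe. Points are arrays, lines are group means and bars are SD (n = 3). FOXO1, FOXO4, BCL6 and both INSR probes lie higher on every HOXA5 array than on any control array, and PIK3CA and the dimmer AKT1 probe lie lower.

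FOXO1 and FOXO4 are the transcription factors at the end of the pathway, where AKT holds them out of the nucleus. FOXO1 (PH_hs_0010156; chr13:40555667-40666641, minus strand, GRCh38.p14) had normalized log2 intensities of 8.81, 8.83 and 8.76 on control arrays 1, 2 and 3, and of 9.71, 9.58 and 9.71 on HOXA5 arrays 1, 2 and 3. All 3 HOXA5 arrays lay above all control arrays, and the arrays of each group lay close together. The group means were 8.80 ± 0.03 and 9.67 ± 0.08 (SD, n = 3), and FOXO1 rose by 0.87 ± 0.06 (limma, adjusted p = 0.00103; 95% interval 0.72 to 1.02). This rise passed the test under each of the 18 alternative settings, at 0.80 to 0.95.

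FOXO4 (PH_hs_0026752; chrX:71095851-71103532, plus strand), whose promoter stretch is printed above, had log2 intensities of 9.05, 8.88 and 8.74 on the control arrays and of 9.54, 10.28 and 9.62 on the HOXA5 arrays. The groups did not overlap, but HOXA5 array 2 stood well above the other HOXA5 arrays. FOXO4 rose by 0.92 ± 0.22 (limma, adjusted p = 0.0357; 95% interval 0.38 to 1.47). In limma the call was lost without control array 1 (adjusted p = 0.0877), 2 (adjusted p = 0.106) or 3 (adjusted p = 0.112) and without HOXA5 array 3 (adjusted p = 0.0627), and also with the authors' processed values (adjusted p = 0.146), with a floor in place of the offset (adjusted p = 0.0744) and with the test that the methods name in place of limma (adjusted p = 0.0997). The change stayed between 0.84 and 1.02 in these settings.

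BCL6 is a transcriptional repressor of germinal centre B cells that FOXO factors also switch on in other cells. Its probe (PH_hs_0009331; chr3:187721377-187745468, minus strand) had raw intensities of 337, 326 and 296 on the control arrays and of 1715, 1284 and 1236 on the HOXA5 arrays. Every HOXA5 array was brighter than every control array before any normalization. After normalization the group means were 8.49 ± 0.14 and 10.57 ± 0.23 (SD, n = 3), and the 95% interval of the change was 1.73 to 2.44 (limma, adjusted p = 0.000949). This was the change farthest from 0 among the 12 member probes. The change of BCL6 lay at the percentile 99.7 of all genes, and it passed under each of the 18 alternatives, at 1.94 to 2.25.

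The genes whose intensities followed BCL6 most closely over the 6 arrays were TLCD2, RCAN2 and GPR155, each with a Pearson r of 0.999. They rose by 2.01 ± 0.14, 2.69 ± 0.18 and 1.17 ± 0.10, respectively (limma, adjusted p = 0.000978, 0.000880 and 0.00158). The 6 points share the split into the 2 groups, and 1031 of 11273 genes above the dim limit on all arrays had an r over 0.95 with BCL6.

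INSR encodes the insulin receptor, the tyrosine kinase that starts the pathway. Its brightest probe (PH_hs_0049088; chr19:7112265-7294414, minus strand) had log2 intensities of 8.75, 8.93 and 8.84 on the control arrays and of 10.28, 10.03 and 10.15 on the HOXA5 arrays. The groups lay more than 1 log2 unit apart, and none of the HOXA5 arrays stood aside. INSR rose by 1.32 ± 0.09 (limma, adjusted p = 0.000890; 95% interval 1.10 to 1.53), at the percentile 98.0 of all genes, and passed under each of the 18 alternatives, at 0.89 to 1.42.

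A second INSR probe (PH_hs_0025683) was far dimmer, with raw intensities of 29, 40 and 27 on the control arrays and of 86, 56 and 34 on the HOXA5 arrays. It was dim on all control arrays and above the dim limit only on HOXA5 array 1, so its change is a bound, at least 1.01-fold higher with HOXA5 (limma, adjusted p = 0.0325). The call of this INSR probe was lost under 11 of 16 alternatives. Among them were the authors' processed values (limma, adjusted p = 0.218) and the other scalings (limma, adjusted p from 0.0576 to 0.0932). It was also lost in limma without control array 1 (adjusted p = 0.110), 2 (adjusted p = 0.0711) or 3 (adjusted p = 0.0865) and without HOXA5 array 1 (adjusted p = 0.0931) or 3 (adjusted p = 0.0920).

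IRS1 and IRS2 are the adaptors that the receptor phosphorylates and that recruit PI3-kinase. IRS1 (PH_hs_0024522; chr2:226731312-226799820, minus strand) had log2 intensities of 8.78, 8.67 and 8.65 on the control arrays and of 8.82, 8.38 and 8.68 on the HOXA5 arrays. The groups overlapped, with HOXA5 array 1 the highest and HOXA5 array 2 the lowest of the 6. The log2 fold change of IRS1 was -0.08 ± 0.12 (limma, adjusted p = 0.730), and its 95% interval of -0.38 to 0.23 leaves out a rise as large as that of FOXO1. Without HOXA5 array 2 the value was 0.044. The other IRS1 probe (PH_hs_0048800) had raw intensities of 152, 107 and 139 on the control arrays and of 115, 20 and 72 on the HOXA5 arrays, dim on HOXA5 array 2, and a log2 fold change of -0.55 ± 0.38 (limma, adjusted p = 0.393). For this IRS1 probe it was -0.14 without the dim HOXA5 array 2 and -0.84 without HOXA5 array 3 (limma, adjusted p = 0.653 and 0.243). The difference of 0.47 between the changes of the IRS1 probes, which includes the dim array, had p = 0.3 in an exact two-sided permutation test over the arrays.

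IRS2 (PH_hs_0048588; chr13:109752695-109786583, minus strand), whose promoter stretch with the insulin response element core is printed above, had log2 intensities of 9.27, 8.94 and 9.80 on the control arrays and of 10.77, 9.58 and 10.81 on the HOXA5 arrays. HOXA5 arrays 1 and 3 lay about 1 log2 unit above the highest control array, while HOXA5 array 2 lay below it, so the groups overlapped. The log2 fold change of IRS2 was 1.05 ± 0.40 (limma, adjusted p = 0.137; 95% interval 0.04 to 2.06), larger than that of FOXO1 but with a spread that the test did not pass. Without HOXA5 array 2 it was 1.47 (limma, adjusted p = 0.0193). A second IRS2 probe (PH_hs_0008458) was dim on all 6 arrays, and no fold is given.

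PIK3CA encodes a catalytic subunit of PI3-kinase. Its probe (PH_hs_0031379; chr3:179148126-179240093, plus strand) had log2 intensities of 7.87, 7.59 and 7.26 on the control arrays and of 7.10, 7.21 and 6.37 on the HOXA5 arrays. All HOXA5 arrays lay below all control arrays, but the spread within each group was wide, and the probe was dim on HOXA5 array 3, the dimmest array as a whole. The log2 fold change of PIK3CA was -0.68 ± 0.27 (limma, adjusted p = 0.149), and its 95% interval ran from -1.36 to -0.00. Without HOXA5 array 3 the PIK3CA value was -0.41 (limma, adjusted p = 0.240). The genes closest to PIK3CA over the 6 arrays were IPCEF1 (r = 0.997), ZNF662 (r = 0.994) and SMARCD1 (r = 0.994), among 107 of 11273 genes with an r over 0.95. IPCEF1, ZNF662 and SMARCD1 did not pass the test either (limma, adjusted p = 0.171, 0.179 and 0.101), and the 6 points share the same arrays and their brightness.

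AKT1 encodes the kinase that phosphorylates FOXO factors, and its 2 probes gave unequal values. The brighter AKT1 probe (PH_hs_0035844; chr14:104769349-104795748, minus strand) had log2 intensities of 11.28, 11.17 and 10.75 on the control arrays and of 10.41, 11.31 and 10.18 on the HOXA5 arrays. HOXA5 array 2 was the highest of the 6 and the other HOXA5 arrays were the lowest. The log2 fold change of this AKT1 probe was -0.43 ± 0.33 (limma, adjusted p = 0.435; 95% interval -1.24 to 0.38). Without HOXA5 array 3 it was -0.20 (limma, adjusted p = 0.757), without HOXA5 array 2 it was -0.77 (limma, adjusted p = 0.0406), and with the mean of both AKT1 probes it was -0.72 (limma, adjusted p = 0.0437).

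The dimmer AKT1 probe (PH_hs_0024085) had log2 intensities of 8.77, 8.45 and 8.41 on the control arrays and of 7.61, 7.57 and 7.44 on the HOXA5 arrays. Here every HOXA5 array, array 2 included, lay below every control array. The probe fell by 1.00 ± 0.11 (limma, adjusted p = 0.00380; 95% interval -1.29 to -0.71), a ratio of 0.50, and of 17 alternatives only the authors' processed values did not pass (limma, -1.05, adjusted p = 0.0664). The changes of the AKT1 probes differed by 0.57, with p = 0.1 in the exact two-sided permutation test over the arrays, the smallest p that 3 against 3 allows. Over all 12 member probes, 5 rose, 1 fell and 6 did not pass, against 11% of all probes that rose and 9.56% that fell.

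**Figure D2:**
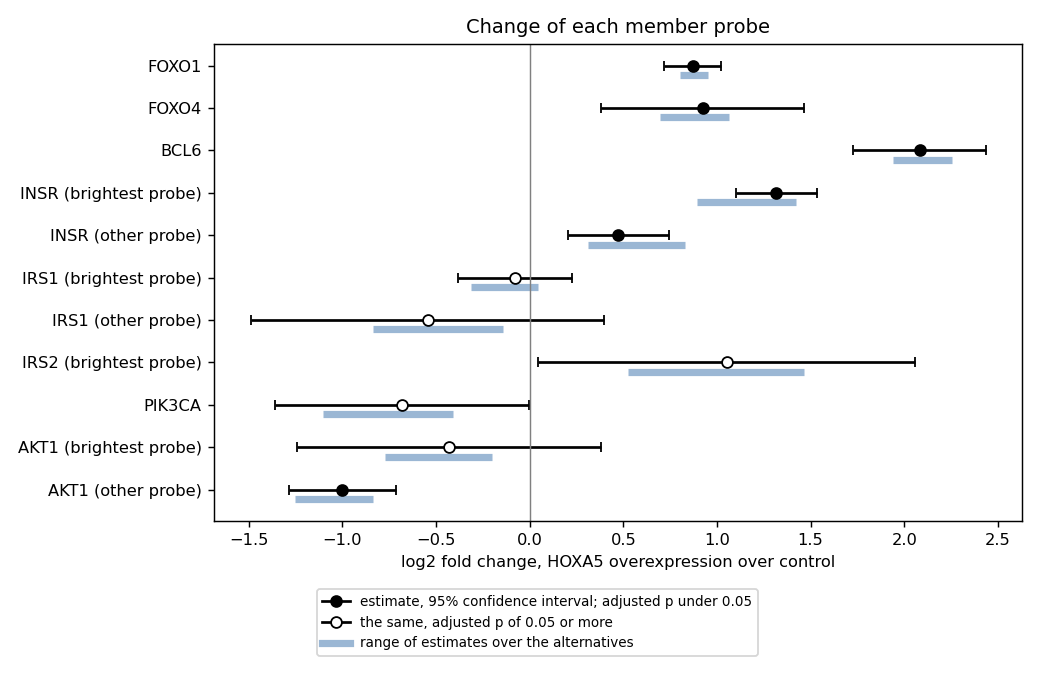
Log2 fold change (x axis) of HOXA5 overexpression over control for each member probe, with its 95% interval from limma. Rises run from the dim INSR probe up to BCL6, and the dimmer AKT1 probe has the only fall that passed the test.

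The other genes of the pathway were counted in 6 lists that hold none of the genes above. Of 144 measured list genes, 41 rose, 16 fell and 87 did not pass, with a median log2 fold change of 0.12. Thus 39.6% of the list genes changed in either direction, against 24% of all genes (13.1% rose and 11% fell). The sets differed in brightness, as 12 of the 144 list genes were dim on all arrays, against 4122 of all 18336 genes. With a filter on dim probes, 2238 of 12754 genes rose and 2041 fell, a larger share than over all genes. The part of brightness in the difference between list genes and all genes was not tested. Of the 41 rises, 21 were in the FOXO targets, among them PCK1, which was dim on all arrays. The lists between receptor and FOXO factor had medians of -0.02 to 0.17. The lists were drawn up with results of these data known, and many of their genes, among them IGF1R, PIK3R5, SGK2, SETD7, SKP2, KLF2 and CCNG2, are also in the study's own FOXO signalling genes from these samples, which is no independent evidence.

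Among ligands, receptors and binding proteins of insulin and the insulin-like growth factors, 3 of 13 rose and 0 fell, so 23.1% changed, near the 24% of all genes. IGFBP3, a binding protein that carries insulin-like growth factors, rose by 2.30 ± 0.21 (limma, adjusted p = 0.00196), while its dimmer probe gave 0.67 ± 0.27 (limma, adjusted p = 0.149). IGF1R, the receptor of insulin-like growth factor and close relative of INSR, rose by 1.32 ± 0.08 (limma, adjusted p = 0.000817), which is the same rounded value as for INSR. A dimmer IGF1R probe gave 0.13 ± 0.40 (limma, adjusted p = 0.875), and the mean over the IGF1R probes did not pass (limma, adjusted p = 0.0648). IGFBP2 rose by 0.75 ± 0.14 (limma, adjusted p = 0.0171), a call lost in limma without control array 1 (adjusted p = 0.0666), control array 2 (adjusted p = 0.0655) or HOXA5 array 3 (adjusted p = 0.0536).

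Among receptor adaptors and receptor inhibitors, 3 of 18 rose and 1 fell, so 22.2% changed, against 24% of all genes, dim ones included. Of these 18 genes 16 were above the dim limit on all arrays, against 11280 of all 18336 genes. PTPRF, a receptor tyrosine phosphatase that acts on the insulin receptor, rose by 1.12 ± 0.10 (limma, adjusted p = 0.00189). GRB14, an adaptor that inhibits the insulin receptor kinase, rose by 0.89 ± 0.23 (limma, adjusted p = 0.0448), and SHC1, an adaptor to the RAS pathway, rose by 0.63 ± 0.13 (limma, adjusted p = 0.0220). SH2B1, an adaptor that enhances insulin receptor signalling, fell by 0.54 ± 0.08 (limma, adjusted p = 0.00861). The GRB14 call was lost in limma without control array 1, 2 or 3 (adjusted p = 0.125, 0.13 and 0.0852) and without HOXA5 array 1 or 3 (adjusted p = 0.114 and 0.0762), and the SHC1 call without control array 1, 2 or 3 (adjusted p = 0.0861, 0.0572 and 0.0777) and without HOXA5 array 3 (adjusted p = 0.0699).

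Among PI3-kinase subunits and lipid phosphatases, 4 of 16 rose and 1 fell, so 31.3% changed, against 24% of all genes. PIK3R5, a regulatory subunit of the PI3-kinase that G proteins activate, rose by 1.22 ± 0.10 (limma, adjusted p = 0.00156), and PIK3CD, the catalytic subunit delta, rose by 0.79 ± 0.11 (limma, adjusted p = 0.00642). Their dimmer probes did not pass (limma, adjusted p = 0.233 for PIK3R5 and 0.0964 for PIK3CD). INPP4A, a lipid phosphatase, rose by 0.55 ± 0.14 at its brightest probe (limma, adjusted p = 0.0490) and gave 0.21 and 0.15 at its other probes (limma, adjusted p = 0.290 and 0.171), and PIK3C3, the class III lipid kinase of autophagy, rose by 0.36 ± 0.08 (limma, adjusted p = 0.0363). PIK3R4, the partner of PIK3C3, fell by 0.48 ± 0.10 (limma, adjusted p = 0.0219). In limma the INPP4A call was lost without control array 1, 2 or 3 (adjusted p = 0.132, 0.0963 and 0.142) and without HOXA5 array 3 (adjusted p = 0.105), the PIK3C3 call without control array 1, 2 or 3 (adjusted p = 0.122, 0.105 and 0.109), and the PIK3R4 call without control array 1 or 2 (adjusted p = 0.0792 and 0.0678) and without HOXA5 array 1 (adjusted p = 0.0534).

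Among AKT and mTOR pathway kinases and regulators, 7 of 27 rose and 6 fell, so 48.1% changed, against 24% of all genes. TRIB3, a pseudokinase that binds AKT, rose by 1.97 ± 0.17 (limma, adjusted p = 0.00172), and its other probe rose by 1.79 ± 0.22 (limma, adjusted p = 0.00472). SGK2, a kinase related to AKT, rose by 1.64 ± 0.19 (limma, adjusted p = 0.00363), but it was dim on 2 of 3 control arrays, and the value ran from 1.30 to 2.28 with other offsets or a floor. AKT2, the AKT form most tied to insulin action, rose by 0.73 ± 0.09 at its brightest probe (limma, adjusted p = 0.00453) but gave -0.05 ± 0.11 at another (limma, adjusted p = 0.830), and TRIB1, a relative of TRIB3, rose by 0.64 ± 0.15 (limma, adjusted p = 0.0324). MAPKAP1, a subunit of mTOR complex 2, fell by 1.28 ± 0.07 (limma, adjusted p = 0.000615), with a second probe at -0.75 ± 0.21 (limma, adjusted p = 0.0650). AKT1S1 and RPTOR, subunits of mTOR complex 1, fell by 1.11 ± 0.15 and 0.98 ± 0.20 (limma, adjusted p = 0.00566 and 0.0244), and RHEB, the small GTPase that activates that complex, fell by 0.94 ± 0.16 (limma, adjusted p = 0.0120). In limma the TRIB1 call was lost without control array 1, 2 or 3 (adjusted p = 0.102, 0.0967 and 0.101), the RPTOR call without control array 1 or 3 (adjusted p = 0.0940 and 0.0799) or HOXA5 array 1 (adjusted p = 0.0737), and the RHEB call without control array 1 or 2 (adjusted p = 0.0563 and 0.0506).

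Among FOXO binding proteins and modifying enzymes, 3 of 30 rose and 4 fell, so 23.3% changed, against 24% of all genes, dim ones included. Of these 30 genes 29 were above the dim limit on all arrays, against 11280 of all 18336 genes. OGT, which adds N-acetylglucosamine to FOXO proteins, rose by 0.92 ± 0.12 (limma, adjusted p = 0.00532), SIRT2, a deacetylase of FOXO factors, rose by 0.80 ± 0.09 (limma, adjusted p = 0.00358), and KAT2B, an acetyltransferase, rose by 0.64 ± 0.15 (limma, adjusted p = 0.0372). SKP2, the ubiquitin ligase subunit that marks FOXO1 for degradation, fell by 0.98 ± 0.05 (limma, adjusted p = 0.000584), and its second probe fell by 0.95 ± 0.20 (limma, adjusted p = 0.0250). SETD7, a lysine methyltransferase, fell by 1.14 ± 0.20 (limma, adjusted p = 0.0133), and YWHAE, a 14-3-3 protein that holds phosphorylated FOXO factors in the cytoplasm, fell by 0.97 ± 0.18 (limma, adjusted p = 0.0159). USP7, which removes ubiquitin from FOXO factors, fell by 0.87 ± 0.08 at its brightest probe (limma, adjusted p = 0.00189), while its other probes gave -0.17 and -0.22 (limma, adjusted p = 0.652 and 0.450). In limma the KAT2B call was lost without control array 1, 2 or 3 (adjusted p = 0.132, 0.116 and 0.0632) and HOXA5 array 1 or 3 (adjusted p = 0.106 and 0.102), the SETD7 call without control array 1 or 3 (adjusted p = 0.0610 and 0.0511), and the YWHAE call without control array 2 (adjusted p = 0.0578) and HOXA5 array 1 or 3 (adjusted p = 0.0540 and 0.0517).

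**Figure D3:**
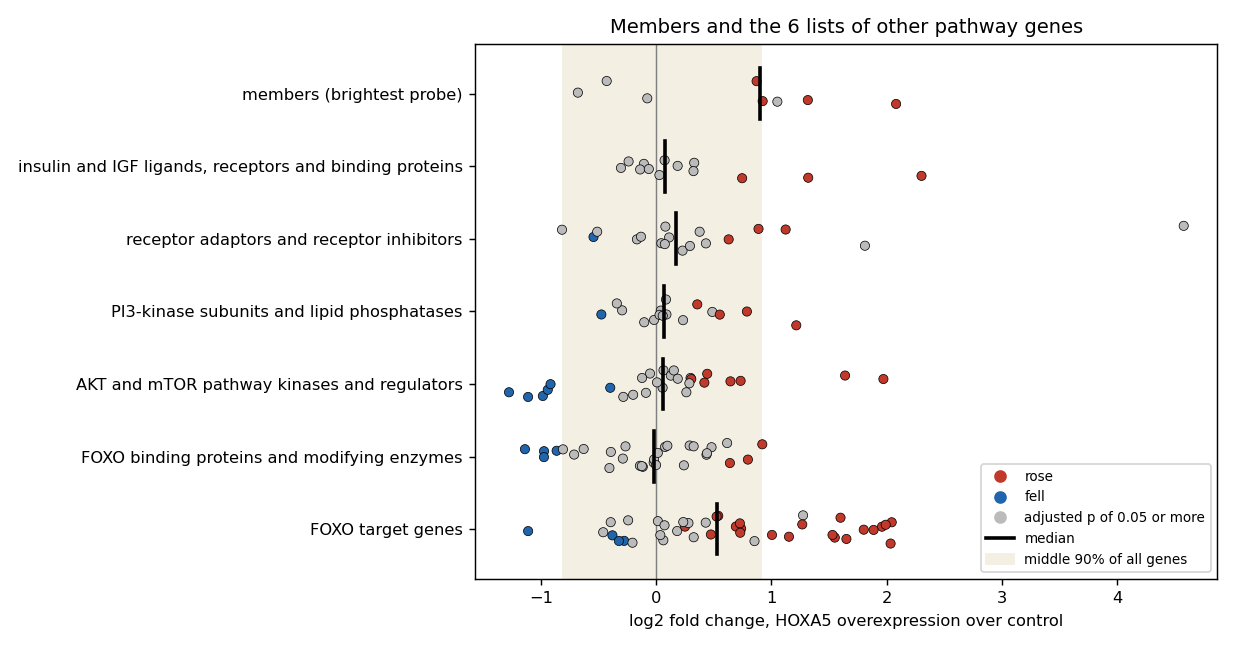
Log2 fold change (x axis) of the brightest probe of each member and of each gene of the 6 lists, with 1 line of points per list. The FOXO targets had a median of 0.53, above the other lists, whose medians lay between -0.02 and 0.17.

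Among 40 measured FOXO target genes, 21 rose, 4 fell and 15 did not pass, and 13 rose and 1 fell by at least 2-fold. Of all genes 13.1% rose and 11% fell, and 3.83% rose and 2.39% fell by at least 2-fold. The median log2 fold change was 0.53. One of the 21, PCK1, was dim on all 6 arrays, so no fold is given for it. Of the other 20, 13 passed under every alternative run for them, and 17 passed when each array in turn was left out. The largest rises were those of BBC3 and SESN2, which act in cell death and stress resistance, of the transcription factor KLF2, and of CCNG2, a cyclin tied to cell cycle arrest. Each of them passed at a log2 fold change of 1.96 to 2.04 (limma, adjusted p from 0.000345 for CCNG2 to 0.00240 for BBC3), although a dimmer CCNG2 probe gave 0.29 ± 0.10 (limma, adjusted p = 0.117). The study also ties CCNG2 to p53, in a negative feedback. Whether FOXO factors drove the rises of this list was not tested.

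Several further targets were chosen for mention after their values were seen. Among autophagy genes, ATG12, PINK1 and MAP1LC3B rose by 1.55 ± 0.17, 1.53 ± 0.13 and 1.27 ± 0.13 (limma, adjusted p = 0.00305, 0.00155 and 0.00284), and ATG14 had a log2 fold change of 0.07 ± 0.11 (limma, adjusted p = 0.719). Of the cyclin-dependent kinase inhibitors, CDKN1B rose by 1.15 ± 0.13 (limma, adjusted p = 0.00363), while CDKN1A had 0.85 ± 0.27 (limma, adjusted p = 0.0851), with groups that did not overlap. PCK2, a mitochondrial enzyme of glucose production, and the cell death gene BCL2L11 rose by 1.89 ± 0.07 and 1.65 ± 0.08 (limma, adjusted p = 0.000243 and 0.000547). G6PC1, an enzyme of glucose production in the liver, and CCND2 were dim on all arrays.

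Of the 4 targets that fell, SOD2 fell most. SOD2, the mitochondrial superoxide dismutase that FOXO3 is known to switch on, fell by 1.11 ± 0.09 (limma, adjusted p = 0.00128), and its second probe fell by 1.41 ± 0.31 (limma, adjusted p = 0.0278). On the control arrays raw SOD2 intensity reached 11240, 12665 and 8569, while the HOXA5 arrays had 4541, 4747 and 3367, without overlap. SESN1, a relative of SESN2, fell by 0.38 ± 0.09 (limma, adjusted p = 0.0316), and TRIM63, a muscle ubiquitin ligase, fell by 0.32 ± 0.07 (limma, adjusted p = 0.0239). CCND1, a cyclin that FOXO factors are known to repress rather than to induce, fell by 0.28 ± 0.07 (limma, adjusted p = 0.0352). In limma the SESN1 call was lost without control array 1, 2 or 3 (adjusted p = 0.0843, 0.0987 and 0.109) and HOXA5 array 2 or 3 (adjusted p = 0.0589 and 0.0880), the TRIM63 call without control array 1 or 2 (adjusted p = 0.0803 and 0.0814) and HOXA5 array 3 (adjusted p = 0.0811), and the CCND1 call without control array 1, 2 or 3 (adjusted p = 0.0613, 0.102 and 0.106) and HOXA5 array 1 or 3 (adjusted p = 0.0839 and 0.105).

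Promoter windows were given for 33 of these FOXO targets. The full forkhead motif TGTTTAC was present in 3 of the 33 genes, against 4.19% of all genes with a window, and the shorter TGTTTNC in 13 of 33, against 21.2% of all. The insulin response element core TTGTTTTG was present in 0 of 33, against 2.08% of all. These are counts of letters near the start only, with no test, and FOXO sites farther away were not searched.

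**Figure D4:**
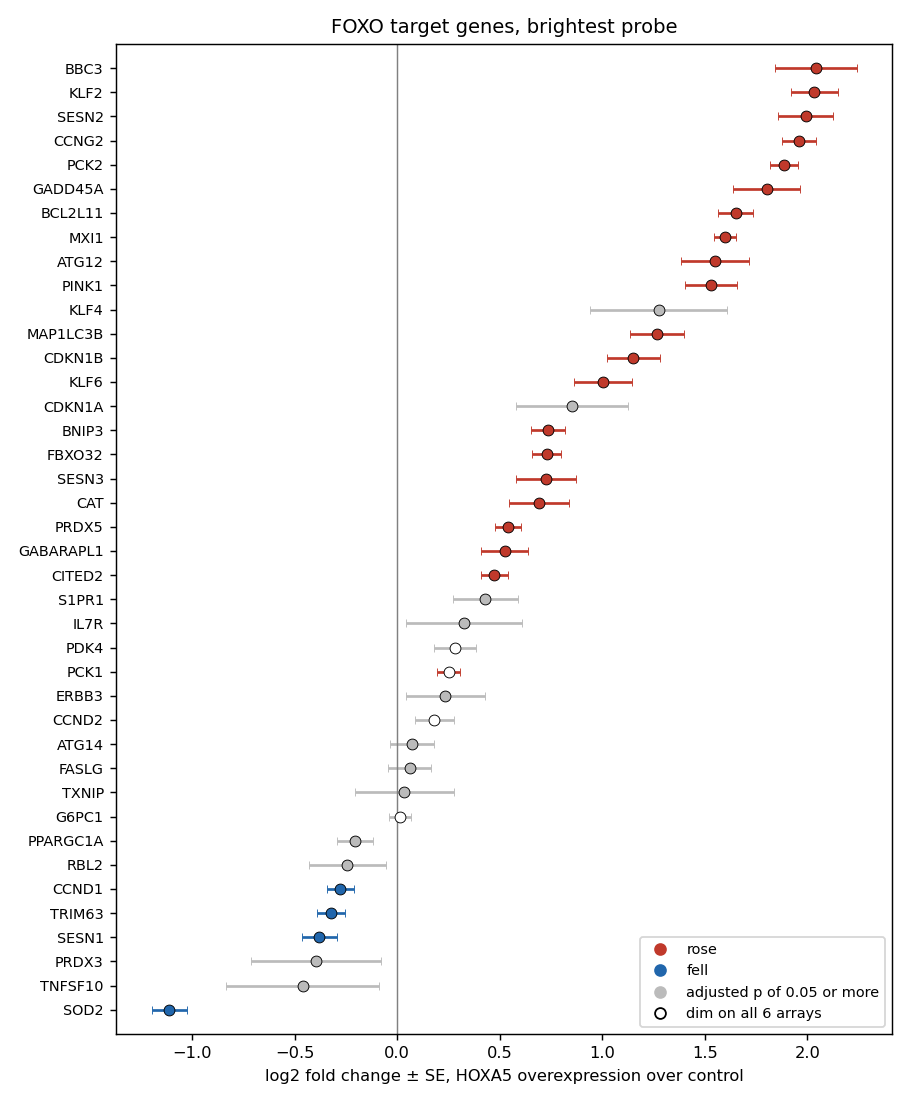
Log2 fold change ± SE (x axis) of the brightest probe of each FOXO target gene, ordered by size. Rises reach 2.04 for BBC3, and SOD2 at -1.11 is the only target that fell by at least 2-fold.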

How the data were processed

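The authors deposited linear raw intensity values for each probe on each array, with a detection p-value, which was not used in any test, and a flag. Raw intensities ran down to -2, so some background had been subtracted. The sources used here name neither the extraction software nor what the flags mean. A probe with a flag other than 0 was called dim. The authors' processed table, made with GeneSpring, holds linear intensity that equals the raw value times 1 constant per array, set in an unstated way. All data columns were mapped to samples (0 unmapped).

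Raw intensities plus an offset of 50 were turned to log2 values and quantile normalized between arrays. The model was fitted to all 31741 probes by lmFit and eBayes of limma 3.58.1 (R 4.3.3), with no covariate or filter, and the two-sided p-values were adjusted over all probes by Benjamini-Hochberg. Because of the offset, the fold changes of dim genes are understated. The number of arrays limits the precision. In the platform annotation 24740 probes carried 1 symbol and 977 several, and symbols of 1948 probes were updated. A probe dim on every array of 1 group was given as a bound against the dim limit.

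Named genes are the members with all their probes, HOXA5, in each list up to 4 genes that rose and 4 that fell by size of change, and the 3 genes most like BCL6 and PIK3CA, the members with the largest rise and fall at the brightest probe. The members, lists and rules were chosen with earlier results of these data known. Alternatives were other scalings, offsets, a floor, a filter on dim probes, a replicate block, limma's trend, the methods' t-test, probe means and leaving out each array. The steps were tested on simulated data. Protein sequences were not analysed here.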

Additional observations from a re-analysis of the deposited data

How the results depend on the processing

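FOXO1, BCL6 and INSR passed under all 18 alternatives, and among the named genes of the 6 lists 16 of 35 did. IRS1, at -0.08, ran from -0.17 to 0.044 when each array was left out, and turned to 0.044 without HOXA5 array 2. The number of members that fell was 1 with a replicate block, with probe means and without HOXA5 array 2, and otherwise 0, so leaving out arrays gave 0 to 1. With probe means 1 member rose by at least 2-fold in place of 2. Over all genes, against 2399 that rose and 2010 that fell, the authors' processed values gave 1062 and 1047, the methods' t-test 1589 and 1192, and leaving out each array 1387 to 2797 and 1073 to 2624. Of the list genes, against 41 and 16, the authors' values gave 27 and 8, the methods' t-test 29 and 10, and leaving out each array 27 to 48 and 10 to 21. Without control array 1 the counts were at the low end. With the authors' values, IGFBP2, SHC1, SH2B1, PIK3CD, INPP4A, PIK3C3 and PIK3R4 lost their calls among the named list genes. So did TRIB1, RHEB, KAT2B, YWHAE, SESN1, TRIM63 and CCND1. With probe means IGF1R, INPP4A and AKT2 lost theirs. SESN1 and CCND1 lost theirs under 13 of 18 alternatives each, and INPP4A and PIK3C3 under 12. The cause of these differences was not tested.

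The replicate numbers matched the samples only in part. In their deviations from the group means, controls 2 and 3 correlated best with the HOXA5 sample of the same number (r = 0.69 and 0.75). Control 1 correlated at -0.13 with HOXA5 1 and best with HOXA5 2 (r = 0.27). Whether the samples were paired is not stated in the labels. A replicate block gave 2690 rises and 2551 falls over all genes, 5 rises and 1 fall among the members, and passing calls for IRS2 and PIK3CA (limma, adjusted p = 0.0284 and 0.0302). The methods' t-test, which they name for group comparisons in general, called 968 genes at an adjusted p under 0.05 with at least a 2-fold change. That threshold is the one given for these arrays. With the same 2-fold limit and an unadjusted p under 0.05 the t-test called 1173 genes. Levels near the dim limit bound what can be seen of the second INSR, IRS1 and IRS2 probes and of PIK3CA on HOXA5 array 3.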

Other observations

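A pair of genes that act on the insulin receptor did not pass the test but had wide gaps between arrays, and they were chosen after their values were seen. GRB10, an adaptor that inhibits the receptor, had raw intensities of 1, 0 and 2053 on control arrays 1, 2 and 3 and of 4593, 4156 and 3341 on the HOXA5 arrays, so control arrays 1 and 2 were dim and control array 3 was not (limma, log2 fold change 4.58 ± 1.56, adjusted p = 0.102). SOCS3, a feedback inhibitor of cytokine and insulin receptors, had raw intensities of 617, 415 and 781 on the control arrays and of 3297, 1042 and 2326 on the HOXA5 arrays, without overlap (limma, log2 fold change 1.81 ± 0.54, adjusted p = 0.0708). The sources of these gaps were not tested.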
